A study of Mus musculus with 34 samples.

Results

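The mouse mitochondrial genome is a small circle that encodes 13 proteins, 2 ribosomal RNAs (rRNAs) and a set of transfer RNAs (tRNAs), and its transcripts were followed here in brain cortex across 4 genotypes and 2 treatments. The count table listed 37 genes on chrM among 55385 genes, and the 23 with a mean of 0.5 CPM (counts scaled to the library total) or more over all libraries were kept: all 13 mRNAs, both rRNAs and 8 tRNAs (mt-Tv, mt-Ti, mt-Tq, mt-Tm, mt-Tw, mt-Ta, mt-Tt and mt-Tp). The 14 genes not kept were all tRNAs, 5 of them with no count in any library. The kept gene nearest to the limit was mt-Tv at 0.559 CPM, and the highest gene not kept was a tRNA gene at 0.225 CPM. All 23 kept genes also passed the filter on low counts that left 17632 genes for testing.

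The study sequenced poly(A)-selected RNA from the cortex of 6-month-old mice of both sexes, and 34 libraries were analysed here. 5xFAD-Dp16 mice carry both of the lesions described next. 5xFAD mice are an amyloid model whose mutant human transgenes are driven by the neuronal Thy1 promoter. Dp16 mice carry an extra copy of a segment of mouse chromosome 16 that matches part of human chromosome 21, and are used as a model of trisomy 21. Wild-type mice were C57BL/6J. Mice of each genotype received either tofacitinib, an inhibitor of Janus kinases 1 and 3, by oral gavage each day for a month (15 mg/kg), or the sham treatment, which was the 0.5% methylcellulose vehicle alone. The groups held 4 5xFAD-Dp16 tofacitinib, 3 5xFAD-Dp16 sham, 5 5xFAD tofacitinib, 4 5xFAD sham, 5 Dp16 tofacitinib, 3 Dp16 sham, 5 wild-type tofacitinib and 5 wild-type sham libraries. The stated design has 6 5xFAD tofacitinib and 4 5xFAD-Dp16 sham mice, and the additional mouse of each of those groups was not analysed here.

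Library totals lay between 16029841 and 21388650 counts, and the CPM of libraries given below are scaled by TMM (the trimmed mean of M-values). Of the 104 tested genes inside the duplicated segment, 92 to 99 had estimates above 0 in the 6 comparisons of a genotype with the duplication against one without it, with medians of 0.50 to 0.59 on the log2 scale. Markers of cortical excitatory neurons were present in every library, and no marker list was at 0. The 5xFAD tofacitinib library of replicate 2 had the lowest summed excitatory markers of the 34 libraries (758 CPM) and the highest summed markers of oligodendrocytes (14244 CPM) and choroid plexus (1518 CPM). In tissue RNA, fewer cells of a type and less RNA per cell cannot be told apart.

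Mammalian mitochondrial DNA is transcribed from both strands as long polycistronic RNAs, which are cut at the tRNAs that sit between most of the other genes. Most of the released mRNAs, and to a lesser extent the rRNAs, receive short poly(A) tails, so they enter poly(A)-selected libraries. The 13 proteins are all subunits of respiratory complexes I, III and IV and of ATP synthase, whose other subunits are made from nuclear genes, and neurons depend heavily on these complexes for ATP.

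Parts of the mitochondrial genome also exist as old insertions in nuclear DNA, and a copy of one stretch of it on chromosome 1 bears on what a count of these genes measures. On the minus strand of chromosome 1 (GRCm38, positions 24611535 to 24616197, 4663 bases), 7 annotated pseudogenes matched 7 of the mRNAs. Gm10925 matched mt-Atp6 over 678 of its bases without a difference, and Gm28661 (mt-Co2, 681 bases), Gm28437 (mt-Co3, 783 bases), Gm10222 (mt-Nd4l, 294 bases) and Gm28439 (mt-Nd4, 876 bases) were likewise identical to their genes. Gm28438 differed from mt-Nd3 at 1 of 345 bases (T3C) and Gm29216 from mt-Co1 at 1 of 483 bases (A1066T). In these tokens the mitochondrial base stands first, then the position counted from 1 at the 5′ end of the mitochondrial gene, then the base of the nuclear copy. The stretches below are shown because they carry the gene with the strongest result, its overlap with its neighbour, its copy and the only differences found between these 7 genes and their copies over the matched bases. All are from the GRCm38 genome with GENCODE M21 gene positions, printed 5′ to 3′ on the gene's own strand. The first 2 lines are the end of mt-Atp8 and the start of mt-Atp6, both on the plus strand, with the 43 bases that the genes share in capitals.
mt-Atp8 end, chrM:7850-7969: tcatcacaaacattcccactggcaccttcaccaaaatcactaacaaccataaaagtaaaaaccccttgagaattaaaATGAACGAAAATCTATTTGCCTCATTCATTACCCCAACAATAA
mt-Atp6 start, chrM:7927-8046: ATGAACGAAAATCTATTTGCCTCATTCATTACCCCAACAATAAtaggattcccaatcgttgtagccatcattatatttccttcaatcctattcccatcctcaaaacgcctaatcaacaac
The next line is the start of Gm10925, in which no base differs from the line above.
Gm10925 start, chr1:24614532-24614651: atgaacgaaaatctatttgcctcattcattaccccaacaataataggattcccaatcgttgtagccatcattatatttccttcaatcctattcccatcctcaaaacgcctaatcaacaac
The end of mt-Atp6 has in capitals the 3 bases past the annotated end of Gm10925.
mt-Atp6 end, chrM:8548-8607: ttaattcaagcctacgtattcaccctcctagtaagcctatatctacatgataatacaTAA
The last 4 lines have the differing base in capitals.
mt-Nd3 stretch, chrM:9459-9501: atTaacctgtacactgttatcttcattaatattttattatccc
Gm28438 stretch, chr1:24613077-24613119: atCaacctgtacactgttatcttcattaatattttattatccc
mt-Co1 stretch, chrM:6390-6433: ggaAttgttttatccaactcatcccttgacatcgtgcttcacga
Gm29216 stretch, chr1:24616145-24616188: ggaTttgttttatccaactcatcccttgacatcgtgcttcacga

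A sequencing read of 150 bases that lies wholly in such a stretch has the same letters in both places. The share of all 150-base windows of a gene with an exact match in its chromosome 1 copy was 99.8% for mt-Co3, 99.4% for mt-Atp6, 99.4% for mt-Co2, 98.0% for mt-Nd4l and 97.0% for mt-Nd3, against 59.2% for mt-Nd4 and 23.6% for mt-Co1. It was 0 for mt-Nd1, mt-Nd2, mt-Nd5, mt-Nd6, mt-Cytb and both rRNAs. mt-Atp8 lies between mt-Co2 and mt-Atp6, and the 233 bases between their copies carry no annotated gene, so it had no window shared with an annotated copy. Only annotated copies were compared, so whether those 233 bases match mt-Atp8 was not tested. How reads with several matches were assigned, and whether counting used the strand, are not given in the sources used here. Counts of the copied genes are therefore uncertain, and those of mt-Atp8 may be too.

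Levels per length lay in separate ranges (RPKM, counts scaled by gene length and library depth, as deposited, mean ± SD over 34 libraries). The 6 long mRNAs (mt-Nd1, mt-Nd2, mt-Nd5 and mt-Cytb with no 150-base window in the copies, and mt-Co1 and mt-Nd4 partly inside them) lay between 2055 and 7401 RPKM and took 74.3% of all mitochondrial counts. mt-Co1, the catalytic core subunit of complex IV (cytochrome c oxidase; ENSMUSG00000064351.1, chrM:5328-6872), was highest at 7401 ± 847 RPKM. mt-Cytb, the only complex III subunit encoded in mitochondria (chrM:14145-15288), had 7074 ± 806 RPKM, a difference smaller than either SD. Of the complex I subunits, mt-Nd1 (chrM:2751-3707) had 6155 ± 782, mt-Nd2 (chrM:3914-4951) 4406 ± 624, mt-Nd5 (chrM:11742-13565) 2946 ± 351 and mt-Nd4 (chrM:10167-11544) 2055 ± 228 RPKM. The rRNA of the small ribosomal subunit, mt-Rnr1 (chrM:70-1024), had 5083 ± 1385 RPKM and that of the large subunit, mt-Rnr2 (chrM:1094-2675), 5024 ± 1660 RPKM, again a difference within their SDs.

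The 6 mRNAs of the copied stretch lay far lower, between 32.9 and 169 RPKM, and together took 0.727% of mitochondrial counts. mt-Atp6, the membrane subunit of ATP synthase that forms its proton channel (ENSMUSG00000064357.1, chrM:7927-8607), led them at 169 ± 24.4 RPKM. mt-Co2 (141 ± 16.5) and mt-Co3 (133 ± 32.2), core subunits of complex IV, followed, then the complex I subunit mt-Nd3 (97.7 ± 28.4) and mt-Atp8 (71.0 ± 32.8), a small ATP synthase subunit (ENSMUSG00000064356.3, chrM:7766-7969). mt-Nd4l, another complex I subunit, was lowest at 32.9 ± 4.13 RPKM. The means of mt-Co2 and mt-Co3 differed by less than either SD, which likewise does not measure their difference within a library. The copies themselves were listed at 305 RPKM for Gm10925, 265 for Gm28437, 242 for Gm29216, 195 for Gm28661, 133 for Gm28438, 113 for Gm28439 and 53.8 for Gm10222. For mt-Atp6, mt-Co2, mt-Co3, mt-Nd3 and mt-Nd4l the listed level of the nuclear copy was above that of the mitochondrial gene. mt-Nd6, a complex I subunit encoded on the minus strand (chrM:13552-14070) with no window shared with a copy, had 145 ± 36.6 RPKM. The 8 tRNAs ranged from 8.10 RPKM (mt-Tv) to 93.4 RPKM (mt-Tw). Their genes are 67 to 71 bases long, shorter than a read of 150 bases, and mt-Ti and mt-Tw share bases with mt-Nd1 and mt-Nd2. Their counts may therefore hold reads of longer RNAs rather than of mature tRNAs, which was not tested. Values of the tRNAs given below are counts over these genes.

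**Figure D1:**
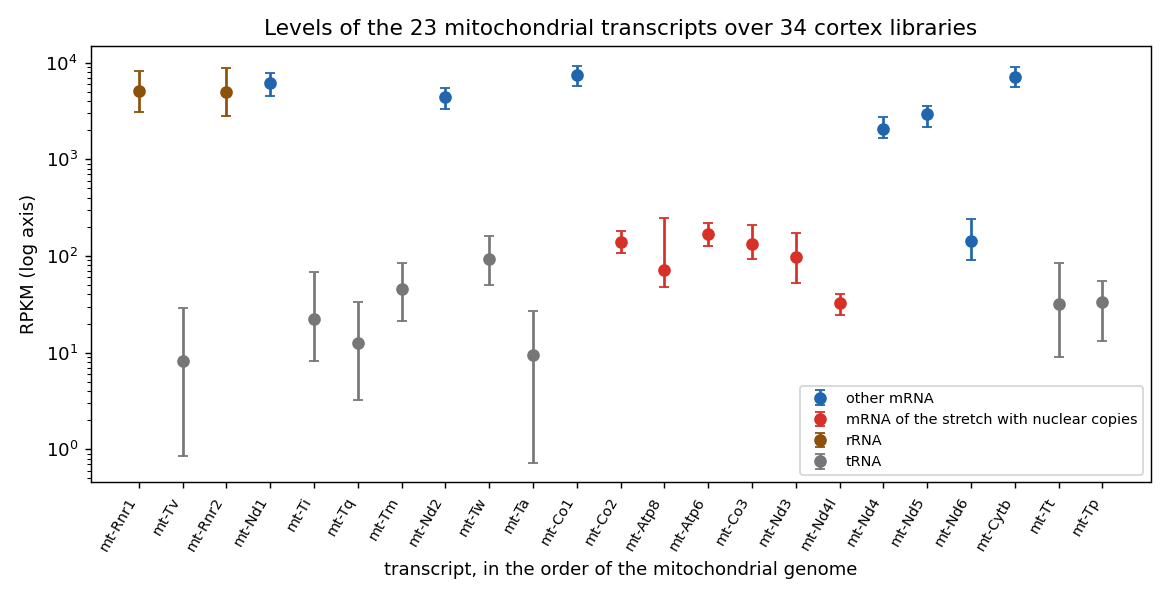
Mean level of each of the 23 transcripts over 34 libraries, in RPKM on a log axis, in the order of the genes on the mitochondrial genome; bars run from the lowest to the highest library and colours mark mRNAs of the copied stretch, other mRNAs, rRNAs and tRNAs. The 6 mRNAs of the copied stretch, from mt-Co2 to mt-Nd4l, lie between 32.9 and 169 RPKM, and the long mRNAs on either side between 2055 and 7401 RPKM.

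All mitochondrial genes together took 4.08% to 6.88% of a library's counts, with a median of 4.98%. Group means were 5.65% ± 0.938 in 5xFAD-Dp16 tofacitinib mice (SD, n = 4), 5.12% ± 0.421 in 5xFAD-Dp16 sham mice (n = 3), 4.62% ± 0.378 in 5xFAD tofacitinib mice (n = 5) and 4.49% ± 0.444 in 5xFAD sham mice (n = 4). They were 5.25% ± 0.596 in Dp16 tofacitinib mice (n = 5), 4.63% ± 0.556 in Dp16 sham mice (n = 3), 5.46% ± 0.865 in wild-type tofacitinib mice (n = 5) and 5.71% ± 0.696 in wild-type sham mice (n = 5). The 5xFAD and Dp16 sham means were below the wild-type sham mean, and the mean of the double mutant lay between. The ranges of 5xFAD-Dp16 sham and wild-type sham mice overlapped. The rRNAs made up 16.4% to 33.0% of mitochondrial counts. This share was 17.8% to 21.2% in 5xFAD sham mice, against 21.0% to 32.3% in wild-type sham mice. No test was run on these shares.

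**Figure D2:**
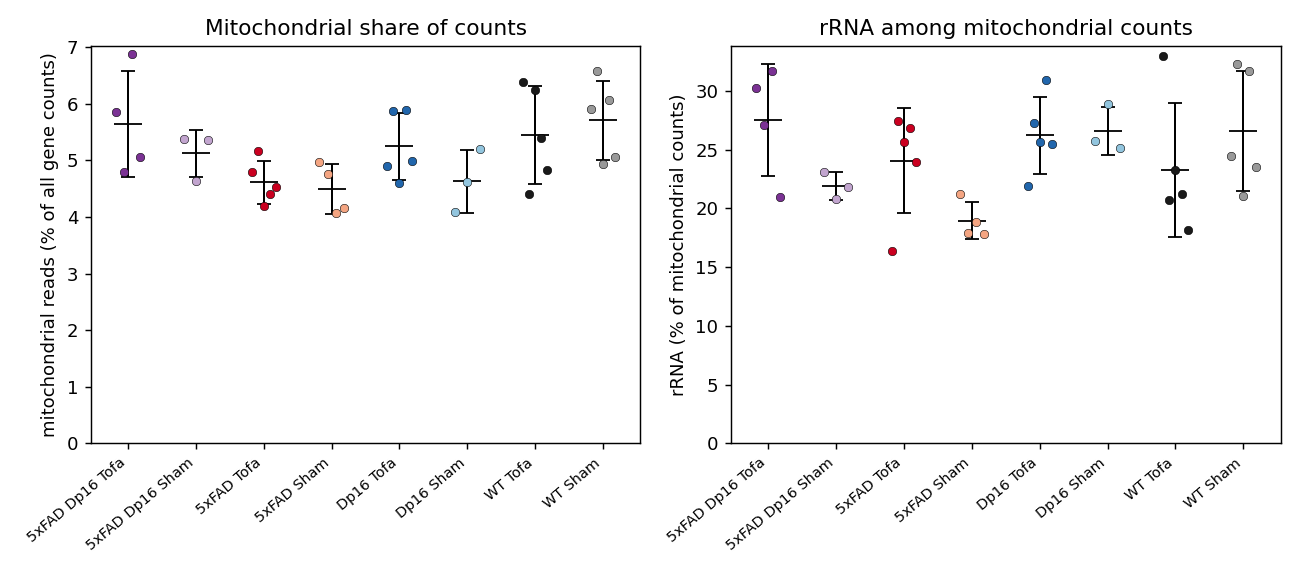
Left, percent of each library's gene counts that fell on mitochondrial genes; right, percent of mitochondrial counts that fell on the 2 rRNAs. Points are libraries in the 8 groups, with the group mean and SD; the 4 5xFAD sham libraries sit between 17.8% and 21.2% in the right plot.

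The members differed in how steady they were within groups. The pooled within-group SD of log2 CPM was 0.155 to 0.181 for the 6 long mRNAs and 0.147 for mt-Atp6, against a median of 0.187 for the 9835 genes with a mean of 10 CPM or more. It was larger for mt-Rnr1 (0.325) and mt-Rnr2 (0.402), for mt-Nd6 (0.289), mt-Co3 (0.312), mt-Nd3 (0.344) and mt-Atp8 (0.368), and 0.384 to 0.911 for the tRNAs. Over the 34 libraries, which share their scaling, mt-Rnr1 and mt-Rnr2 had a Spearman rho of 0.964, and pairs of long mRNAs had 0.753 to 0.955. Pairs of an rRNA and a long mRNA had 0.273 to 0.703. These correlations are descriptions with no test.

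In 5xFAD mice, estimates of all 23 transcripts lay below those of wild-type mice under either treatment, but no transcript was called, that is, had an adjusted p under 0.05. The comparisons of each mutant with wild-type share the wild-type libraries of their treatment. Of all tested genes, 48.5% lay below in sham mice and 51.7% under tofacitinib. In sham mice the median log2 difference was -0.50 over the 23 members, against 0.012 over all tested genes. By class it was -0.24 for the mRNAs, -0.83 for the rRNAs and -0.74 for the tRNAs. None of the 23 was called by edgeR's quasi-likelihood test with Benjamini-Hochberg adjustment, with 0.00567% of all tested genes called, and DESeq2 called mt-Rnr1, mt-Rnr2, mt-Atp6, mt-Co3, mt-Nd3, mt-Nd6 and mt-Ti among 1532 genes in all. With 1 library left out, edgeR called 7 members among 2008 genes in all without wild-type sham 3, 6 among 1625 without wild-type tofacitinib 1, 4 among 873 without 5xFAD tofacitinib 1 and 1 among 507 without 5xFAD tofacitinib 2. Calls over the whole genome thus moved with the same omissions. An unadjusted p under 0.05 was found for 10 members, against 24.7% of all tested genes.

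mt-Rnr2 had 6470, 5136, 4501 and 4391 CPM in 5xFAD sham libraries, against 9186, 13629, 6352, 12220 and 7356 CPM in wild-type sham libraries. All but the highest 5xFAD library were below the lowest wild-type one. The log2 difference was -0.92 (SE 0.264) for mt-Rnr2 and -0.75 (SE 0.211) for mt-Rnr1, both with an adjusted p of 0.0633 in edgeR. mt-Atp6 had 105.9, 117.6, 99.7 and 93.8 CPM in 5xFAD sham libraries, against 129.2, 146.8, 124.3, 145.5 and 121.8 CPM in wild-type sham libraries. All 4 were below all 5, with a log2 difference of -0.37 (SE 0.101, edgeR adjusted p = 0.0633). The groups of mt-Nd3 (-0.72, edgeR adjusted p = 0.0679), mt-Co3 (-0.59, edgeR adjusted p = 0.0874), mt-Ti and mt-Tw did not overlap either. These 5 members stand against 5.91% of all tested genes with every 5xFAD sham library below every wild-type sham library.

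Other features moved with this comparison. The summed choroid plexus markers were 11.4 to 14.3 CPM in 5xFAD sham libraries, against 16.6 to 229 CPM in wild-type sham libraries, and 0 of 6 markers had an estimate above 0. Of the excitatory neuron markers 8 of 9 had estimates above 0, with a median of 0.21. Short genes were low in the same libraries: the Spearman rho, across genes, of a library's log2 deviation with gene length was 0.253 to 0.450 in 5xFAD sham libraries, against -0.309 to 0.323 in wild-type sham libraries, where a positive value means that longer genes are higher. With that trend removed the median difference of the 23 members was -0.11, and mt-Rnr1 and mt-Rnr2 were called among 798 genes in all. The part of these features in the result was otherwise not tested.

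Under tofacitinib the 5xFAD estimates were again below 0 for all 23 members, with a median of -0.38. edgeR called none, with 0.0113% of all tested genes called, and DESeq2 called mt-Nd6 among 5 genes in all. Without adjustment, 13 members had a p under 0.05, against 6.27% of tested genes. mt-Nd6 had 54.1, 70.1, 46.0, 49.3 and 53.9 CPM in 5xFAD tofacitinib libraries, against 129.9, 76.7, 101.9, 79.0 and 72.4 CPM in wild-type tofacitinib libraries. The groups did not overlap, and the log2 difference was -0.75 (SE 0.166, edgeR adjusted p = 0.231). mt-Atp6 had 105.5, 99.3, 87.3, 97.8 and 107.4 CPM in 5xFAD tofacitinib libraries, against 136.3, 112.4, 142.2, 145.1 and 116.8 CPM in wild-type tofacitinib libraries. Again every 5xFAD library was below every wild-type one (-0.39, edgeR adjusted p = 0.461). These were the only 2 members without overlap, against 0.25% of all tested genes. The rRNAs had a median of -0.32 here, against -0.83 in sham mice. Markers moved with this comparison as well. Of the excitatory neuron markers 0 of 9 had estimates above 0 (median -0.23), with summed levels of 758 to 2476 CPM in 5xFAD tofacitinib libraries, against 1435 to 2489 CPM in wild-type tofacitinib libraries. The markers of oligodendrocytes (8 of 8, median 0.18), striatum (8 of 8, 0.35) and choroid plexus (6 of 6, 1.41) all had estimates above 0. Summed choroid plexus markers were 7.66 to 1518 CPM in 5xFAD tofacitinib libraries, against 8.99 to 435 CPM in wild-type tofacitinib libraries. Without wild-type sham 2 and 5xFAD tofacitinib 2, the median of the 23 members was -0.40 and edgeR again called none. The part of the markers in the result was otherwise not tested.

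In Dp16 sham mice, 22 of 23 estimates lay below those of wild-type sham mice, mt-Tp being the exception, against 49.8% of all tested genes, and the median was -0.34. edgeR called 0 of the 23, with 0.21% of all tested genes called, and DESeq2 called mt-Atp6 among 63 genes in all. The 7 members at an unadjusted p under 0.05 were all mRNAs, against 7.16% of tested genes. mt-Atp6 had 85.1, 94.5 and 109.7 CPM in Dp16 sham libraries, below all 5 wild-type sham values given above, with a log2 difference of -0.46 (SE 0.111, edgeR adjusted p = 0.095). mt-Co1 had 8726, 9556 and 11195 CPM in Dp16 sham libraries, against 12624, 14430, 11606, 12863 and 11418 CPM in wild-type sham libraries. mt-Cytb had 6267, 6587 and 8027 CPM in Dp16 sham libraries, against 9753, 9383, 8143, 8795 and 8235 CPM in wild-type sham libraries. For both, every Dp16 library was below every wild-type library, with estimates of -0.35 each (edgeR adjusted p = 0.434 and 0.439). In all, 7 members had no overlap (mt-Nd1, mt-Co1, mt-Co2, mt-Atp8, mt-Atp6, mt-Nd4 and mt-Cytb), against 1.82% of all tested genes below. The rRNAs had a median of -0.40 and overlapping groups.

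The striatal markers had 0 of 8 estimates above 0 in this comparison, with a median of -0.81 and summed levels of 703 to 1291 CPM in Dp16 sham libraries, against 879 to 2321 CPM in wild-type sham libraries. The choroid plexus markers had 6 of 6 above 0, with a median of 0.95. Their part in the result was not tested. Under tofacitinib the Dp16 estimates were closer to 0: 18 of 23 lay below 0, against 50.6% of tested genes, with a median of -0.16. Here edgeR and DESeq2 called no member, and 3 had an unadjusted p under 0.05, with 0.255% of tested genes called and 8.35% at an unadjusted p under 0.05. mt-Atp6 had 110.3, 106.8, 98.7, 116.8 and 112.1 CPM in Dp16 tofacitinib libraries, a range that overlapped that of wild-type tofacitinib mice (-0.25, edgeR adjusted p = 0.452). In this comparison the striatal markers had 8 of 8 estimates above 0 (median 0.26) and those of erythrocytes 5 of 5 (0.50). Markers of choroid plexus (0 of 6, -0.87), excitatory neurons (0 of 9, -0.19) and hippocampus (1 of 6, -0.70) mostly lay below 0. The part of these markers was not tested.

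In the double mutants the estimates lay nearer 0. In 5xFAD-Dp16 tofacitinib mice the median difference from wild-type tofacitinib mice was 0.066, with 14 estimates above 0 and 9 below, against 49.1% of tested genes above. Neither tool called a member, with 0.306% of tested genes called by edgeR, and 2 had an unadjusted p under 0.05, against 6.35%. mt-Atp6 had 149.5, 112.8, 147.3 and 121.2 CPM in 5xFAD-Dp16 tofacitinib libraries, a range close to that of wild-type tofacitinib mice (log2 difference 0.030). In 5xFAD-Dp16 sham mice the median difference from wild-type sham mice was -0.24, with 20 estimates below 0, against 49.2% of tested genes. Neither edgeR nor DESeq2 called a member, with 0.363% of tested genes called by edgeR, and 3 had an unadjusted p under 0.05, against 14.6%. mt-Atp6 had 108.9, 100.3 and 124.4 CPM in 5xFAD-Dp16 sham libraries, which overlapped the wild-type range (-0.25, edgeR adjusted p = 0.306). mt-Atp8 was the 1 member with no overlap, with 13.8, 11.1 and 11.6 CPM in 5xFAD-Dp16 sham libraries, against 15.4, 15.3, 15.6, 17.1 and 17.0 CPM in wild-type sham libraries, where 3.96% of all tested genes lay below without overlap. In the same comparison the markers of striatum (0 of 8 above 0, median -1.28), choroid plexus (1 of 6, -1.60) and excitatory neurons (8 of 9, 0.23) moved too. The Spearman rho with gene length was 0.201 to 0.421 in 5xFAD-Dp16 sham libraries, against -0.309 to 0.323 in wild-type sham libraries. The part of these features in the result was not tested.

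**Figure D3:**
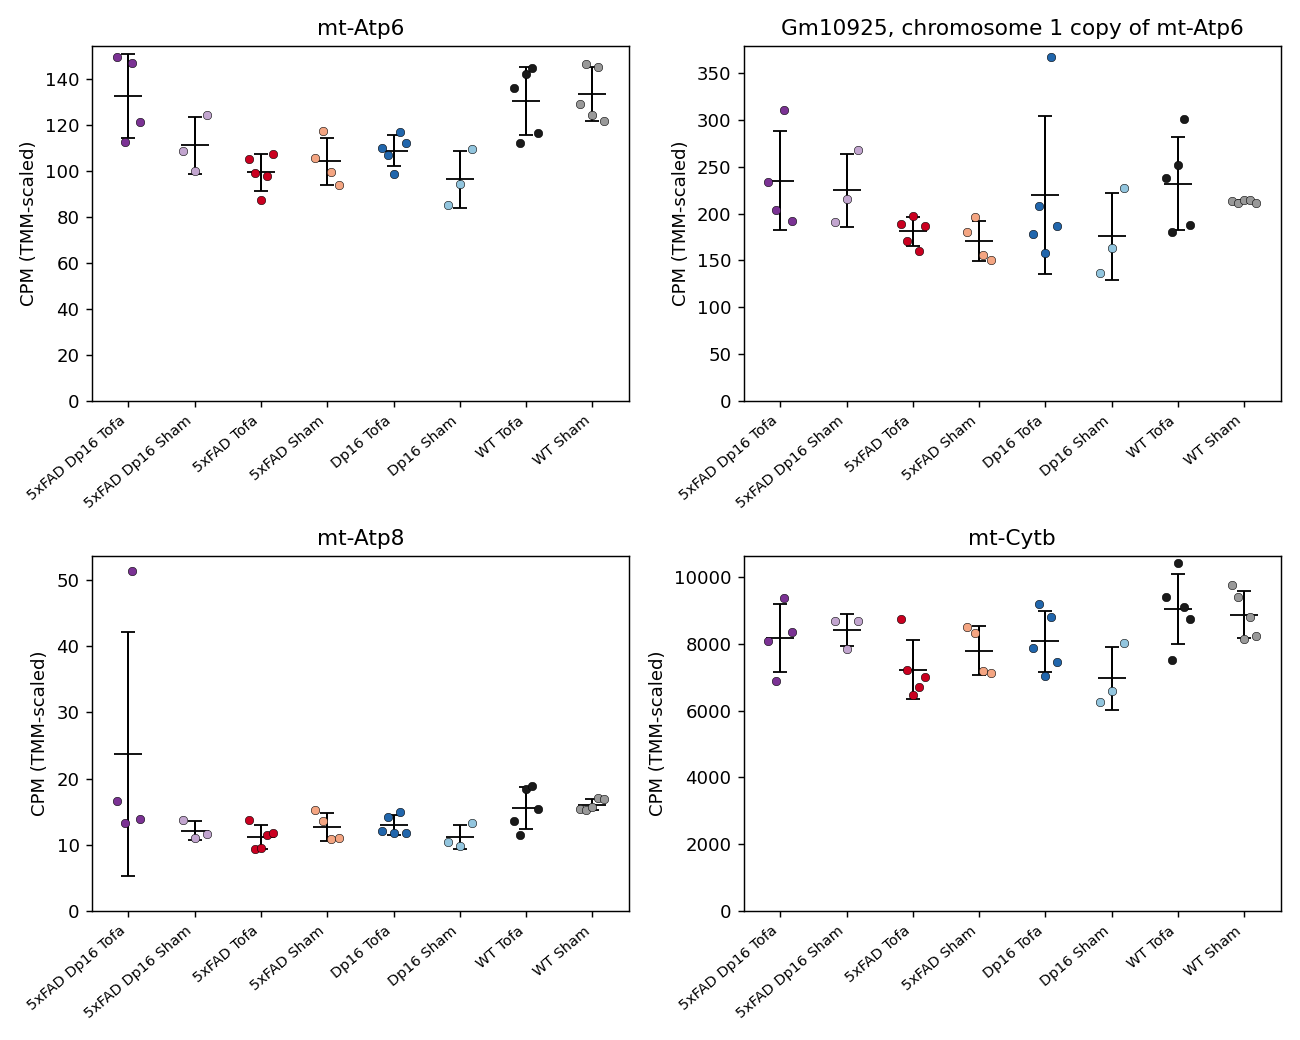
CPM (TMM-scaled) of mt-Atp6, its chromosome 1 copy Gm10925, mt-Atp8 and mt-Cytb in every library of the 8 groups, with the group mean and SD. mt-Atp6 means are 133 and 111 CPM in 5xFAD-Dp16 tofacitinib and sham mice, 99.5 and 104 in 5xFAD, 96.4 in Dp16 sham and 134 in wild-type sham mice; 1 5xFAD-Dp16 tofacitinib library has 51.3 CPM of mt-Atp8.

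Adding the Dp16 duplication to 5xFAD gave estimates above 0 for all 23 members under tofacitinib and for 21 of 23 under sham, against 50.6% and 51.2% of all tested genes. Under tofacitinib the median was 0.41, and 1 member, mt-Atp8, rose by edgeR's quasi-likelihood test (log2 difference 1.07, SE 0.238, adjusted p = 0.0404), with 0.238% of all tested genes called. DESeq2 called mt-Atp6, mt-Atp8, mt-Nd3 and mt-Tw among 130 genes in all. Of the 23, 16 had an unadjusted p under 0.05, against 7.89% of tested genes. mt-Atp8 had 16.6, 13.3, 51.3 and 13.9 CPM in 5xFAD-Dp16 tofacitinib libraries, against 13.7, 9.45, 9.50, 11.4 and 11.8 CPM in 5xFAD tofacitinib libraries. Replicate 3 of the double mutants stood far above all others, and the groups overlapped. Without that library the log2 difference was 0.41 and the edgeR adjusted p was 0.501. The call also ended when any of 14 other libraries was left out alone, namely wild-type sham 1 and 5, 5xFAD sham 2, 5xFAD tofacitinib 2, 4, 5 and 6, Dp16 sham 1, 2 and 3, Dp16 tofacitinib 1 and 3, and 5xFAD-Dp16 sham 2 and 4. It ended as well with the length trend removed (0.86, adjusted p = 0.13), with the replicate block (0.87, adjusted p = 0.351), with only the groups compared in the fit (1.06, adjusted p = 0.721) and without wild-type sham 2 and 5xFAD tofacitinib 2 together (1.05, adjusted p = 0.121). Over all 34 omissions the estimate was 0.41 to 1.27 and the edgeR adjusted p 0.00592 to 0.501. The 5xFAD-Dp16 tofacitinib library of replicate 3 had the lowest summed striatal markers of the 34 (343 CPM) and 519 CPM of choroid plexus markers, and a part of these in its mt-Atp8 level was not tested.

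The mt-Atp6 values of the 5xFAD-Dp16 tofacitinib libraries, 112.8 CPM and above, lay above those of all 5 5xFAD tofacitinib libraries, 107.4 CPM and below, with a log2 difference of 0.42 (SE 0.0996, edgeR adjusted p = 0.0586). It was called when wild-type sham 2, wild-type tofacitinib 1, 5xFAD tofacitinib 1 or 5xFAD-Dp16 tofacitinib 2 was left out alone. mt-Nd3 had 53.0, 39.0, 61.0 and 35.2 CPM in 5xFAD-Dp16 tofacitinib libraries, against 18.3, 30.1, 27.3, 33.3 and 31.6 CPM in 5xFAD tofacitinib libraries. These groups did not overlap either (0.76, edgeR adjusted p = 0.175). With mt-Ti and mt-Tm they made 4 members without overlap, against 1.26% of all tested genes above. In the same comparison the oligodendrocyte markers had 0 of 8 estimates above 0, with a median of -0.46 and summed levels of 5618 to 7506 CPM in 5xFAD-Dp16 tofacitinib libraries, against 6519 to 14244 CPM in 5xFAD tofacitinib libraries. Of these 8 markers edgeR called 1, Mag (log2 difference -0.64, adjusted p = 0.0186), against 0.238% of all tested genes. The striatal markers had 0 of 8 above 0, with a median of -0.68. Their part in the result was not tested.

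Under sham treatment the double mutants had a median of 0.13 against 5xFAD mice. edgeR and DESeq2 called 0 of 23, with 0.102% of all tested genes called, and 1 had an unadjusted p under 0.05, against 3.74% of tested genes. That member was mt-Nd5, with 6112, 5598 and 6217 CPM in 5xFAD-Dp16 sham libraries, against 5548, 5400, 4593 and 4630 CPM in 5xFAD sham libraries. The groups did not overlap (0.26), as for 5.32% of all tested genes above. The striatal markers had 0 of 8 estimates above 0 in this comparison, with a median of -1.19, and their part in the result was not tested. Against Dp16 mice, 5xFAD-Dp16 sham mice had a median of 0.13 with 9 members below 0, and 5xFAD-Dp16 tofacitinib mice one of 0.16 with 1 below 0, against 50.5% and 50.6% of tested genes. edgeR and DESeq2 called none in either, with 0.00567% of all tested genes called in each. At an unadjusted p under 0.05 there were 4 members in sham mice and 2 under tofacitinib, against 6.15% and 4.51% of tested genes.

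**Figure D4:**
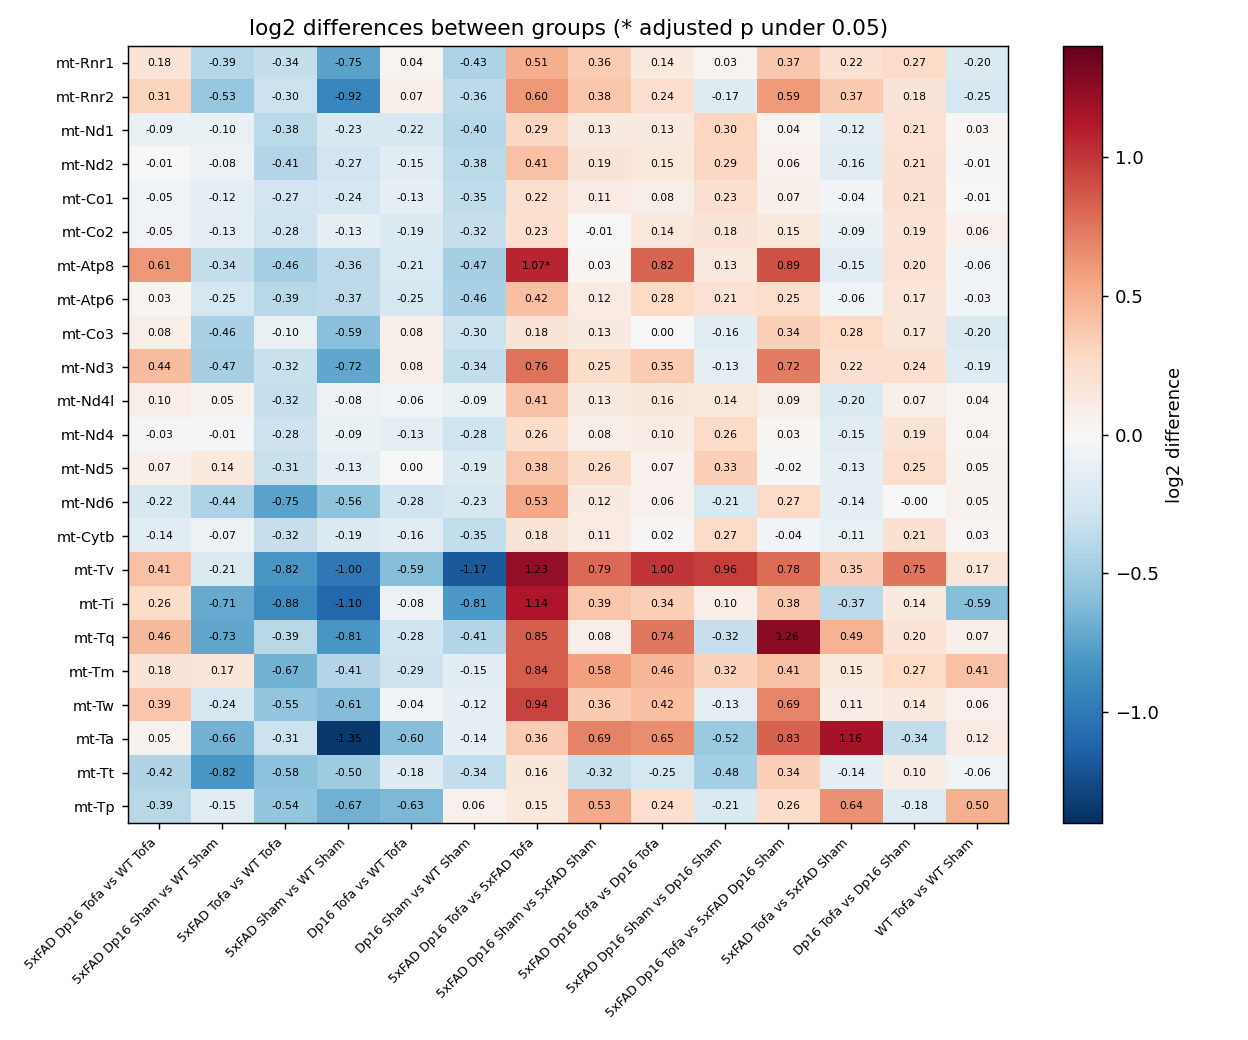
log2 differences of the 23 transcripts (down) in the 14 comparisons of 2 groups (across), red above 0 and blue below, the first-named group over the second; the star marks an adjusted p under 0.05. The columns of 5xFAD over wild-type are blue throughout, the column of 5xFAD-Dp16 over 5xFAD under tofacitinib is red throughout, and mt-Atp8 there (1.07) carries the only star.

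The interaction compares the difference of 5xFAD-Dp16 from 5xFAD with that of Dp16 from wild-type, and is 0 on the log2 scale where the effects of the 2 lesions add. Averaged over both treatments, it was above 0 for all 23 members, against 51.8% of all tested genes, with a median of 0.62. mt-Atp6 was the only gene of the 17632 that passed the adjusted threshold in edgeR (0.00567%), and DESeq2 also called it and no other member. The estimate was 0.62 (SE 0.105, edgeR adjusted p = 0.0203). At an unadjusted p under 0.05 there were 18 members, against 4.25% of all tested genes. By class the median was 0.42 for the mRNAs, 0.63 for the rRNAs and 0.85 for the tRNAs. The mRNAs ranged from 0.27 (mt-Co3) to 0.89 (mt-Atp8), with 0.52 for mt-Nd1 (SE 0.116, edgeR adjusted p = 0.596), 0.56 for mt-Nd2 (SE 0.127, edgeR adjusted p = 0.596), 0.41 for mt-Co1 and 0.40 for mt-Cytb (edgeR adjusted p = 0.996 each). The tRNAs ranged from 0.18 (mt-Tt) to 1.89 (mt-Tv). The members share libraries and are cut from shared precursors, so their common sign is not a count of independent results.

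The mt-Atp6 values behind this were a mean of 133 CPM in 5xFAD-Dp16 tofacitinib mice and 111 CPM in 5xFAD-Dp16 sham mice. They were 99.5 and 104 CPM in 5xFAD tofacitinib and sham mice, 109 and 96.4 CPM in Dp16 tofacitinib and sham mice, and 131 and 134 CPM in wild-type tofacitinib and sham mice. Each single lesion thus had lower means than wild-type under both treatments, and the double mutant means were above both single-lesion means under both treatments. The interaction was 0.67 (SE 0.137) under tofacitinib and 0.57 (SE 0.158) under sham, with edgeR adjusted p-values of 0.461 and 0.999. The difference between these was 0.10 (SE 0.209, edgeR adjusted p = 0.948). The call over both treatments ended without 10 of the 34 libraries, each left out alone, with estimates of 0.58 to 0.66 and adjusted p-values of 0.0116 to 0.167 over all 34. The 10 were wild-type sham 1, 5xFAD sham 3 and 4, 5xFAD tofacitinib 4, Dp16 sham 1 and 2, 5xFAD-Dp16 sham 1 and 4, and 5xFAD-Dp16 tofacitinib 1 and 3. It also ended with library totals in place of TMM scaling (0.55, adjusted p = 0.0777), with the length trend removed (0.63, adjusted p = 0.133) and with counts of Gm10925 added to those of mt-Atp6 (0.59, adjusted p = 0.996).

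The nuclear copies had interaction estimates of like size. Gm10925 had 0.58 (SE 0.175), Gm29216 0.79, Gm28439 0.65, Gm28661 0.50, Gm28438 0.48, Gm28437 0.47 and Gm10222 0.45, each with an edgeR adjusted p of 0.996. In the same order, their unadjusted edgeR p-values were 0.00235, 0.000556, 0.00029, 0.00535, 0.15, 0.117 and 0.00317. Gm29216 had 272 CPM in the 5xFAD-Dp16 sham library of replicate 2, against 115 CPM in each other library of that group. Gm10925 had 234, 204, 310 and 192 CPM in 5xFAD-Dp16 tofacitinib libraries and 189, 171, 198, 160 and 187 CPM in 5xFAD tofacitinib libraries. It had 178, 208, 158, 367 and 187 CPM in Dp16 tofacitinib libraries, where replicate 4 stood apart, and 238.5, 181, 252, 301 and 187 CPM in wild-type tofacitinib libraries. Since 99.4% of the 150-base windows of mt-Atp6 also occur in Gm10925, reads of the 2 genes cannot be told apart by sequence. Within each treatment all 23 interaction estimates were above 0, with medians of 0.56 under tofacitinib and 0.49 under sham, against 50% and 50.4% of tested genes above 0. edgeR called no member in either, as it called 0% of all tested genes, and DESeq2 called mt-Atp6 alone of all genes under tofacitinib and no member under sham. At an unadjusted p under 0.05 there were 16 members under tofacitinib and 8 under sham, against 7.21% and 2.39% of tested genes. In the interaction over both treatments, marker lists had medians of 0.13 for excitatory neurons (9 of 9 above 0), 0.10 for astrocytes (6 of 6) and 0.21 for hippocampus (5 of 6). Medians were -0.17 for oligodendrocytes (0 of 8 above 0), -0.60 for striatum (0 of 8), -0.40 for choroid plexus (2 of 6) and -0.29 for erythrocytes (1 of 5). Those of thalamus, inhibitory neurons, microglia and endothelium lay between -0.085 and 0.046. Their part in the result was not tested.

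**Figure D5:**
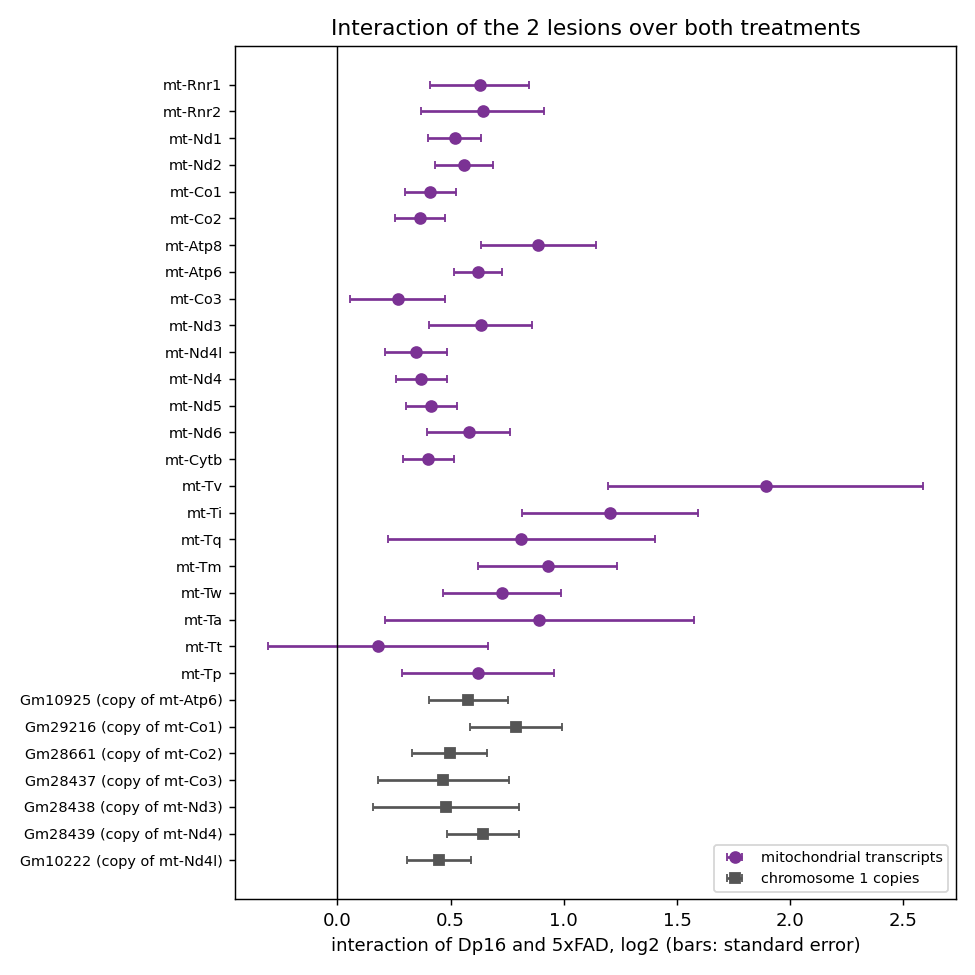
Interaction of Dp16 and 5xFAD over both treatments on the log2 scale for the 23 mitochondrial transcripts (circles) and the 7 chromosome 1 copies (squares); bars are standard errors. All estimates lie above 0, from 0.18 for mt-Tt to 1.89 for mt-Tv, and mt-Atp6 at 0.62 has the smallest standard error, 0.105.

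Tofacitinib against sham gave no called member within any genotype. The medians were 0.34 in 5xFAD-Dp16 mice, -0.058 in 5xFAD mice, 0.19 in Dp16 mice and 0.030 in wild-type mice, and 0.082 as the mean over genotypes. edgeR called 0% of all tested genes in each of these, and DESeq2 called no member. At an unadjusted p under 0.05 there were 4 members in 5xFAD-Dp16 mice, 0 in 5xFAD mice, 1 in Dp16 mice and 0 in wild-type mice, against 1.83%, 14.7%, 2.02% and 7.24% of tested genes, and 1 over genotypes, against 3.32%. In 5xFAD-Dp16 mice the mt-Nd3 values given above for the tofacitinib libraries were all above the 32.7, 20.7 and 31.5 CPM of the sham libraries (0.72, edgeR adjusted p = 0.999). mt-Tw also had no overlap, and 2.82% of all tested genes lay above without overlap. Choroid plexus markers had medians of 1.03 in 5xFAD-Dp16, 3.12 in 5xFAD, -1.86 in Dp16 and -0.27 in wild-type mice. In the same order those of striatum were 0.32, -0.21, 0.39 and -0.69, and of excitatory neurons -0.26, -0.30, 0.049 and 0.14. The Spearman rho with gene length was -0.341 to 0.432 in 5xFAD tofacitinib libraries, against 0.253 to 0.450 in 5xFAD sham libraries. The part of these features was not tested. The treatment difference of the interaction had a median of 0.075, with 14 members above 0, against 49.7% of tested genes. edgeR and DESeq2 called none and none had an unadjusted p under 0.05, against 3.84% of tested genes.

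The nuclear genes that supply the rest of the respiratory complexes were described from lists of their subunits. In 5xFAD sham against wild-type sham mice, 35 of 36 complex I, 3 of 4 complex II, 9 of 9 complex III, 11 of 11 complex IV and 16 of 17 ATP synthase genes had estimates below 0, with medians of -0.54, -0.17, -0.64, -0.76 and -0.58. None was called by edgeR. Short genes were low in these 5xFAD sham libraries, as given above, and with that trend removed the median of the 23 members was -0.11. The part of gene length in the medians of the nuclear lists was not tested. The mitochondrial mRNAs had -0.24 in the same comparison, so both genomes' estimates lay below 0 there. In 5xFAD tofacitinib against wild-type tofacitinib mice, complex I had 14 of 36 below 0 with a median of 0.021. Complex IV had 8 of 11 below 0 with -0.073 and ATP synthase 9 of 17 with -0.010, against -0.32 for the 13 mitochondrial mRNAs. Values of complexes II and III are not given for this comparison. In Dp16 sham against wild-type sham mice most nuclear genes lay below 0 too, namely 31 of 36 for complex I, 8 of 9 for complex III, 10 of 11 for complex IV and 13 of 17 for ATP synthase, while 0 of 4 did for complex II. Their medians were -0.068, -0.066, -0.11, -0.073 and 0.034 in that order, against -0.34 for the mitochondrial mRNAs. For the interaction over both treatments the nuclear lists had medians of 0.035 (complex I), 0.019 (complex III), 0.13 (complex IV) and 0.047 (ATP synthase), against 0.42 for the mitochondrial mRNAs. These differences between lists were not tested.

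Genes that copy, transcribe and process mitochondrial DNA and RNA were described likewise by their median log2 difference. The 18 tested genes of DNA maintenance and transcription (among them Tfam, which packs mitochondrial DNA, Polrmt, the RNA polymerase, and Polg, the DNA polymerase) had -0.16 in 5xFAD sham mice, -0.019 in Dp16 sham mice and -0.0045 for the interaction over both treatments. The 27 tested genes of RNA processing, polyadenylation and stability (among them Lrpprc, which stabilises mitochondrial mRNAs, and Grsf1, of the RNA granules) had -0.036, -0.0053 and -0.047 in the same order. The 77 mitochondrial ribosomal proteins had -0.40 in 5xFAD sham mice and -0.021 for the interaction. In 5xFAD sham mice the 7 regulators of mitochondrial biogenesis had 0.087, the 14 genes of the mitochondrial stress response -0.078 and the 9 genes of mitophagy -0.30. Across all these lists the called genes all rose and all 4 lie in the duplicated segment of chromosome 16: Gabpa, a subunit of a transcription factor of respiratory genes, Mrpl39, a mitochondrial ribosomal protein, and the ATP synthase subunits Atp5j and Atp5o. Gabpa was 1.53-fold higher in 5xFAD-Dp16 tofacitinib than in 5xFAD tofacitinib mice (edgeR adjusted p = 0.0107). Atp5j was 1.76-fold (edgeR adjusted p = 0.0141) and Atp5o 1.71-fold higher (edgeR adjusted p = 0.0307) in Dp16 tofacitinib than in wild-type tofacitinib mice. Mrpl39 was 1.53-fold higher in the same comparison (edgeR adjusted p = 0.000125).

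Among 14455 tested genes outside chrM with a mean of 1 CPM or more, those whose log2 CPM followed the mean of the members most closely over the 34 libraries were Gm28438 (Spearman rho 0.872), Bc1 (0.857), Rpl34-ps1 (0.801), Gm28437 (0.792) and Ugp2 (0.780). Gm28438 and Gm28437 are the chromosome 1 copies of mt-Nd3 and mt-Co3. Bc1 is a short noncoding RNA of neurons, Rpl34-ps1 is a ribosomal protein pseudogene and Ugp2 makes UDP-glucose. The libraries share their scaling, and these are descriptions with no test.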

How the data were processed

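The authors deposited raw counts per gene and RPKM values for 55385 genes in 34 libraries. Per the labels' protocols, RNA was extracted with TRIzol, poly(A) RNA was made into strand-specific libraries (Tecan/Nugen Universal Plus mRNA kit), and paired reads of 150 bases were sequenced on an Illumina NovaSeq instrument. The submitters' processing notes name bcl2fastq, FastQC 0.11.5, HISAT2 2.1.0, SAMtools 1.5, HTSeq 0.6.1 and GRCm38. The strand setting of counting and the handling of reads with several matches are not given in the sources used here, so mt-Nd5 and mt-Nd6, which overlap on opposite strands, may share reads.

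The deposited counts were filtered (filterByExpr, 17632 genes), scaled by TMM and fitted with edgeR 4.0.16 (robust quasi-likelihood, limma 3.58.1, R 4.3.3) with group and sex as terms over all 34 libraries, giving 19 comparisons of groups and interactions. A gene was called at a two-sided Benjamini-Hochberg adjusted p under 0.05. DESeq2 1.42.0 was an alternative. CPM are TMM-scaled, and the deposited RPKM were used for levels between genes. The fit was tested on simulated data. The alternatives tried were other scalings, filters and covariates, fewer samples, each library left out, a correction for gene length and counts summed with the nuclear copies.

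The members are the chrM genes with a mean of 0.5 CPM or more and all are named. From each pathway list, at most 4 called genes were named or, with none called, the gene with the highest mean CPM, and a few list members are named for their role only, without values. Genes outside chrM were also named by the 5 highest Spearman rho with the members' mean. Members and lists were chosen with earlier results of these data known.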

Additional observations from a re-analysis of the deposited data

Results flagged for a closer look

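In the 6 groups of 4 or 5 libraries, the levels of the 15 mRNAs and rRNAs and the mitochondrial share of counts were examined for a library far from the others of its group, and 3 of 96 sets of values held one. Chance alone would pick about 1 in 20 such sets. The 5xFAD-Dp16 tofacitinib library of replicate 3 had 51.3 CPM of mt-Atp8, against 13.3 to 16.6 CPM in the other libraries of its group. Replicate 2 of the same group had the lowest mt-Nd4l level, 9.70 CPM, with 11.2 to 11.5 CPM in the others. The wild-type sham library of replicate 1 had 3387 CPM of mt-Nd4, with 2819 to 2958 CPM in the others. The interaction of Dp16 and 5xFAD was called for mt-Atp6, at 0.62 on the log2 scale over both treatments (edgeR adjusted p = 0.0203). That call ended with counts of Gm10925 added to those of mt-Atp6 (edgeR adjusted p = 0.996). It ended as well with library totals in place of TMM scaling (edgeR adjusted p = 0.0777) and with the length trend removed (edgeR adjusted p = 0.133). Leaving out any 1 of 10 of the 34 libraries ended it too.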

How the results depend on the processing

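Numbers of called members moved most with the tool and the filter. The number after "of" is that of all genes called in the same fit. With no filter on low counts, called members numbered 1 of 158 in Dp16 sham, 6 of 1784 in 5xFAD sham and 5 of 873 in 5xFAD-Dp16 sham against wild-type sham, 3 of 76 in 5xFAD and 1 of 153 in 5xFAD-Dp16 tofacitinib against wild-type tofacitinib, and in 5xFAD-Dp16 tofacitinib 9 of 295 against 5xFAD and 1 of 111 against Dp16 tofacitinib. Still without the filter, tofacitinib against sham had 1 of 642 in 5xFAD, 3 of 93 in 5xFAD-Dp16 and 1 of 51 over genotypes, and the interaction 9 of 47 over treatments, 2 of 21 in sham and 7 of 124 under tofacitinib. DESeq2 called 1 of 63 in Dp16 sham, 7 of 1532 in 5xFAD sham and 1 of 5 in 5xFAD tofacitinib against wild-type, 4 of 130 in 5xFAD-Dp16 against 5xFAD tofacitinib and 1 of 1 in the tofacitinib interaction. With only the groups compared in the fit, 5xFAD sham against wild-type had 6 of 1410 and 5xFAD-Dp16 against 5xFAD tofacitinib 0. That comparison of the double mutants also had 0 with the replicate block and without wild-type sham 2 and 5xFAD tofacitinib 2. With the length trend removed, called members were 2 of 798 in 5xFAD sham and 1 of 3 in 5xFAD tofacitinib against wild-type and 0 in the interaction over treatments. Under that setting the medians were -0.11 for 5xFAD sham against wild-type, -0.26 and 0.14 for tofacitinib against sham in 5xFAD and in 5xFAD-Dp16, and 0.28 for the treatment difference of the interaction, which was -0.26 with the replicate block. The interaction over treatments had 0 called with library totals only and 0 with the nuclear copies summed, an alternative chosen after seeing the data. The causes were not tested.

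With each library left out alone, called members ranged over 0 to 3 in 5xFAD-Dp16 against 5xFAD tofacitinib, 0 to 7 in 5xFAD sham against wild-type and 0 to 1 in the interaction over treatments, and the median of 5xFAD-Dp16 against wild-type tofacitinib over -0.072 to 0.26. The 5xFAD sham comparison had 7 of 2008 without wild-type sham 3, 6 of 1625 without wild-type tofacitinib 1, 4 of 873 without 5xFAD tofacitinib 1 and 1 of 507 without 5xFAD tofacitinib 2. Without 5xFAD-Dp16 tofacitinib 3, mt-Atp8 had -0.072 against wild-type tofacitinib, where the estimate was 0.61 with all libraries and up to 0.81 with another left out. No called number or median moved past its limit with DESeq2's size factors, a mean CPM of 1 or more, no sex term, non-robust moderation (also chosen after seeing the data) or scaling without mitochondrial genes.

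Libraries with the same replicate number were not clearly more alike: 98 such pairs had correlations of -0.392 to 0.245 (median 0.0142). The 405 pairs with other numbers had -0.33 to 0.303 (median -0.00197). Of the 34 libraries, 9 correlated best with one of their own number. Groups of 3 to 5 libraries limit the precision, and counts of the tRNAs are few: mt-Tv was as low as 0.0612 CPM in a library.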
